A study of Mus musculus with 4 samples.

Results

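The immediate early genes and heat shock chaperones of the mouse mammary epithelium were followed in 3 single-cell libraries. The set was a list of 39 gene symbols, 28 early genes and 11 chaperones, looked up by symbol among the 27998 gene rows of the tables, and 38 had a row. Cebpd was not analysed here, which left 27 early genes and 11 chaperones. All mice were FVB/NJ females, and all cells were total mammary epithelium sorted as Lin-CD24+, that is, lacking the surface proteins of blood and endothelial cells and carrying CD24. Per the study's methods, the puberty library came from 5-week-old mice (6 pooled). The estrus and diestrus libraries each came from 10-week-old adults (2 pooled), staged by vaginal cytology within the ovarian cycle. Each library was made with the 10X Genomics Chromium system, which counts transcripts by their 3′ ends with unique molecular identifiers (UMIs), so each value is a number of captured molecules. There was 1 library per stage, so stages could be described but not tested.

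Immediate early genes are transcribed within minutes of a growth factor, hormone or stress signal, without new protein synthesis, because the factors that switch them on are already present and wait to be phosphorylated. Many encode transcription factors, among them the FOS and JUN proteins that pair as AP-1, and others encode the phosphatases, RNA-decay factors and inhibitors that end the same signal. Heat shock chaperones fold new or damaged proteins, and heat shock factor 1 raises the inducible members when unfolded proteins accumulate. Both groups are also known to respond to the enzymes, warmth and handling used to free cells from a tissue. All cells here were dissociated and sorted, so expression in the gland and expression after removal from it cannot be told apart.

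The genes lay on many chromosomes, and 2 pairs were neighbours. Hspd1 and Hspe1 are read in opposite directions on chromosome 1 from starts 111 bases apart, and Hspa1a and Hspa1b lie on the same strand of chromosome 17 with starts 12918 bases apart (GENCODE M21, GRCm38). Promoter windows from RefSeq (GRCm38.p6) were matched for 32 of the 38 genes. The 250 bases before each start were searched for the paired heat shock element (GAANNTTC or TTCNNGAA), the cyclic AMP response element (TGACGTCA), the AP-1 site (TGANTCA) and the CArG box of serum response factor, all of which read the same on both strands, and on the gene's strand for the TATA box (TATAAA). A heat shock element pair was found for 7 of 8 chaperones and 1 of 24 early genes, Jun, against 12.8% of the 32851 windows of all genes. The search took in bases of annotated exons. Outside exons lay 0 of 250 bases for Hspe1, 32 for Dnaja1 and 210 for Hsph1, which are among the 7. Members were counted by gene, with 39 windows for 32 genes, and all genes by window. The cyclic AMP response element was found for 3 of 24 early genes (Btg2, Dusp1 and Maff) and 0 of 8 chaperones, against 1.55% of all windows. The CArG box was found for 1 early gene, Zfp36 (1.47% of all windows), the TATA box for 3 (7.59%), and the AP-1 site for none (6.75%). These are matches of letters, not measured binding. The windows below show the contrast between the groups: Fos with its TATA box, the early gene that holds a heat shock element (Jun), the early genes Dusp1 and Btg2 with the cyclic AMP response element, and the chaperones Hspa1a and Hspb1 with heat shock elements. Capitals mark matches of the motifs above. Only bases outside annotated exons are printed, so the Dusp1 window is 203 bases long and ends 48 bases before the start. Windows are at chr12:85473640-85473889 (plus strand, Fos), chr4:95052223-95052472 (minus, Jun), chr17:26508520-26508722 (minus, Dusp1), chr1:134079156-134079405 (minus, Btg2), chr17:34972157-34972406 (minus, Hspa1a) and chr5:135887669-135887918 (plus, Hspb1), each written 5′ to 3′, the others up to the base before the start.
Fos: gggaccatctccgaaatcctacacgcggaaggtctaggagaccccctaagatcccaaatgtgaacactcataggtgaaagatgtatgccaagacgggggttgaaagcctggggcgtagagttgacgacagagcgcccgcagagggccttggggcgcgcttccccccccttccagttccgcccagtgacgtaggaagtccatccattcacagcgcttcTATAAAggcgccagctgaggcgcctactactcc
Jun: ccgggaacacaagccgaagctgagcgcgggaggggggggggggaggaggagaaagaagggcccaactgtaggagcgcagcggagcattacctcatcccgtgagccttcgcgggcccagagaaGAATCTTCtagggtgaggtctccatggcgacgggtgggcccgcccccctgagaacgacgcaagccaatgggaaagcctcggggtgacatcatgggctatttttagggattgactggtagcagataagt
Dusp1: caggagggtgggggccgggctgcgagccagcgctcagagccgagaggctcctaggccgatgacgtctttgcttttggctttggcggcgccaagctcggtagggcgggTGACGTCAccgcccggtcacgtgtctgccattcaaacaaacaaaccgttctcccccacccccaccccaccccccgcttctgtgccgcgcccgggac
Btg2: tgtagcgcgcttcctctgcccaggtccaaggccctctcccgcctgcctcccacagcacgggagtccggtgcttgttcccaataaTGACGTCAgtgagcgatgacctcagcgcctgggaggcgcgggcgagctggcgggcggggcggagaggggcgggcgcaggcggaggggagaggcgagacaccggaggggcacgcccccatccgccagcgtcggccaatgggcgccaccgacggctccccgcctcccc
Hspa1a: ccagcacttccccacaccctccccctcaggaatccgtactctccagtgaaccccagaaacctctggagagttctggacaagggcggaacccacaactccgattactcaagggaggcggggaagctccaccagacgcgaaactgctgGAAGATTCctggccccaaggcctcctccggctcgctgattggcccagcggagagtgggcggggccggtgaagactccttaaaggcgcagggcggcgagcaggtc
Hspb1: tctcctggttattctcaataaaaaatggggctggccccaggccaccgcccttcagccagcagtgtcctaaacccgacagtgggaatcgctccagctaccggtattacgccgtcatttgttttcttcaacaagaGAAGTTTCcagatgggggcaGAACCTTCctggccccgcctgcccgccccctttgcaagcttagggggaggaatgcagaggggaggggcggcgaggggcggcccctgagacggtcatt
The heat shock element of Hspa1a began 104 bases before the start and that of Jun 128 bases before it, and Hspb1 held pairs at 117 and 97 bases.

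The tables held 5428 barcodes and 25365324 counts in puberty, 2729 and 10962454 in estrus, and 2439 and 11868593 in diestrus. A second puberty table shared 5387 barcodes with the first, so the puberty tables were taken as 1 library. Other tables shared at most 24. Each cell was placed in 1 of 3 lineages, which are basal cells, progenitors of the luminal layer (LP, luminal progenitor) and its hormone-sensing cells (ML, mature luminal), or between them as luminal intermediate (Lum Int) or mixed, from signatures that held no member of the set. The lineages held 472 to 2183 cells per library. Krt14 and Acta2, proteins of the basal layer, belonged to the basal signature, so their basal levels do not test the assignment. Krt14 stood at 4604 counts per 1e6 counts (CPM) in basal cells of puberty and 18.8 in LP. The luminal keratin gene Krt18 was in no signature, and basal cells of the libraries held 187 to 505 CPM of it. LP cells held 4488 to 8787 CPM of Krt18, and ML cells 7010 to 10559. Summed markers of immune cells stayed at or under 1.83 CPM in every lineage, and those of endothelial cells at or under 28.8. Those of fibroblasts summed to 249 to 706 CPM in basal and ML cells and to at most 1.83 in LP cells, and Dcn, a proteoglycan of connective tissue, gave nearly all of it (706 CPM in ML cells of diestrus). Those of red cells summed to 63.2, 24.3 and 538 CPM in ML cells of puberty, estrus and diestrus, mostly from the globin gene Hba-a1, and to at most 11 in basal and LP cells. The part of either in the differences described here was not tested. Median mitochondrial shares of the libraries were 0.680% to 0.969%.

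Early genes took a larger share of all transcripts in estrus than in diestrus or puberty, in every lineage. In basal cells the 27 early genes took 1.09% of counts in puberty, 3.69% in estrus and 2.03% in diestrus. In LP cells their shares were 1.96%, 4.88% and 2.89%, in the same order. In ML cells the shares were 1.43%, 3.34% and 2.24%. LP cells were thus highest of the 3 lineages in each library, and the basal and ML cells changed places between them. The 11 chaperones differed less between libraries and were highest in basal cells, with 1.15%, 1.25% and 0.869% in basal cells, 0.733%, 0.825% and 0.733% in LP cells and 0.601%, 0.699% and 0.659% in ML cells. The chaperone shares of LP cells were alike in puberty and diestrus. Wilson 95% intervals on these shares cover counting error only, since reads of 1 library share its mice and handling.

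**Figure D1:**
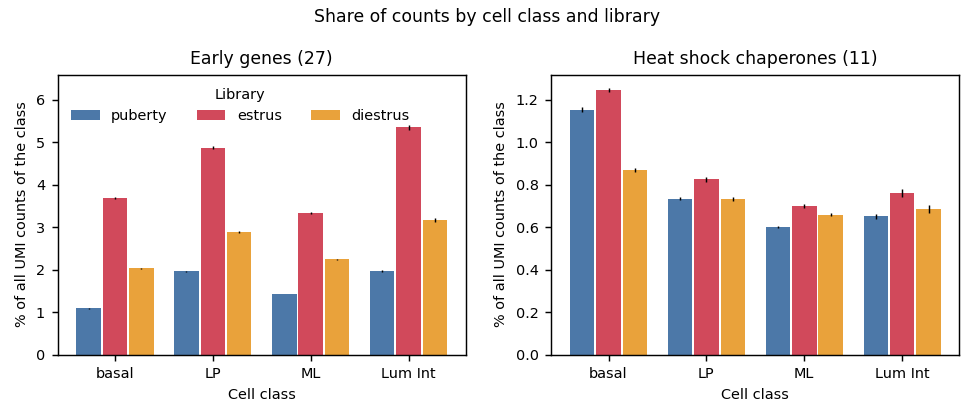
Percentage of all UMI counts of a cell class taken by the 27 early genes (left) and the 11 chaperones (right), for basal, LP, ML and Lum Int cells of the puberty, estrus and diestrus libraries. Bars are single libraries and error bars are Wilson 95% intervals for counting error; the early share of estrus is the highest of the 3 libraries in each class, while chaperones stay between 0.601% and 1.25%.

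Which lineage carried more of each transcript was tested on counts summed per lineage and library (9 sums), with the library as a block, by edgeR's quasi-likelihood test across 11144 genes. Levels below are CPM after TMM normalization, which evens out library composition, in puberty, estrus and diestrus, in that order, and log2 fold changes carry their standard error (SE). The luminal side of the first comparison is the mean of the log2 levels of LP and ML cells. A gene can thus be called higher in basal cells and still be higher in LP cells. It can also be called higher in luminal cells and still be lower in ML than in basal cells. Calls are at a Benjamini-Hochberg adjusted p under 0.01. The libraries are 1 per stage, so the block takes up shifts of a stage that its lineages share. The spread within this test is that of lineage differences between libraries, and so between stages. Its p-values rest on 3 libraries.

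Between basal and luminal cells the early genes split. Of 27, 7 were higher in basal cells and 11 higher in luminal cells, when 21.8% and 18.5% of all tested genes (40.3% in all) were called in these directions, and the median log2 difference was -0.42 against 0.02 over all genes. The chaperones leaned 1 way: 7 of 11 were higher in basal cells and none in luminal cells, with a median of 0.56. In edgeR 0 of 11 were higher in luminal cells also at an unadjusted p under 0.05, and DESeq2 called 0.

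Among the AP-1 subunits, Jun, a partner of FOS, was lower in basal cells at 580.2, 1628 and 1229.8 CPM than in LP (1758, 3768 and 1981) or ML cells (1465, 3209 and 2796). Its basal level was below both luminal lineages in each library, and the log2 difference of basal from luminal cells was -1.17 (SE 0.14, adjusted p = 4.29e-05). Jund, the JUN family member with the steadiest expression in most tissues, showed the same order with a log2 difference of -1.45 (SE 0.14, adjusted p = 7.92e-06), and Fosb followed at -0.46. Fos itself stood at 1255, 7416 and 4221 CPM in basal cells, 3396, 8827 and 5113 in LP cells and 2388, 5900.3 and 4616 in ML cells. The lineages overlapped across libraries, and its difference of -0.42 (SE 0.19, adjusted p = 0.0805) was not called. Junb also was not called, at -0.10.

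Other early transcription factors went to opposite lineages. Klf6, a zinc finger factor of wound responses, was higher in luminal cells, with 317, 606 and 398 CPM in basal cells against 2495, 4031 and 2232 in LP and 1169.6, 1219 and 1132 in ML cells. Its log2 difference of -2.10 (SE 0.15, adjusted p = 6.46e-07) was the largest of the set toward luminal cells. Klf2, a flow-sensitive factor of endothelium that is also found in epithelia, followed at -1.60 and Atf3, a stress-induced repressor, at -1.01. Levels of Klf2 were 155, 359 and 260 CPM in basal, 301, 458 and 275 in LP and 946, 2628 and 1639 in ML cells. Its basal and LP levels were thus close in diestrus. Maff, a small MAF protein, was higher in basal cells at 1.5 (SE 0.13, adjusted p = 2.35e-06). So were Nr4a1, an orphan nuclear receptor, at 0.99, Cebpb, a leucine zipper factor needed for luminal differentiation, at 0.86, and Klf4 at 0.75. The basal level of Cebpb was nevertheless under its LP level in each library. Basal Maff, at 1179, 1219 and 504 CPM, was near its LP level (1044, 1036 and 428). ML cells had 168, 132 and 98.8 CPM of Maff. In puberty, basal Nr4a1 (235 CPM) was under its LP level (291), and basal Klf4 (216) under its ML level (238). Egr1, a zinc finger factor downstream of ERK, was not called, with 0.17 (SE 0.16, adjusted p = 0.397).

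The feedback inhibitors differed among themselves. Socs3, which shuts off cytokine signalling through JAK kinases, had 672, 2364 and 1186 CPM in basal cells, 133, 264 and 150.0 in LP and 336, 791 and 705 in ML cells. Basal cells were highest in each library, and the log2 difference was 1.97 (SE 0.15, adjusted p = 1.12e-06). Nfkbia, the inhibitor that holds NF-κB in the cytoplasm, was higher in luminal cells at -1.59 (SE 0.27, adjusted p = 4.97e-04). In estrus, however, its basal level (635 CPM) was above its ML level (510). Dusp1, a phosphatase of MAP kinases, was higher in basal cells (0.75), and Zfp36, which destabilizes AU-rich transcripts, in luminal cells (-0.82). Basal Dusp1 was close to its LP level in estrus (1057 against 1031 CPM) and diestrus (785 against 784). Basal Zfp36 was above its ML level in estrus (680 against 615 CPM). Of the remaining genes Gadd45b, a growth arrest gene, was higher in basal cells at 1.24, and Ier5, Btg1 and Ier2 were higher in luminal cells at -1.18, -0.96 and -0.59. LP cells were highest for Ier5 and Ier2 in each library. Basal Ier5 was above its ML level in estrus (218 against 181 CPM) and diestrus (166 against 156), and basal Ier2 in estrus (1567 against 1376). Nfkbiz, Ier3, Btg2, Gadd45a, Mcl1 and Rhob were not called, at log2 differences between -0.51 and 0.06.

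Chaperones of several families were more abundant in basal cells. Hsph1, the HSP110 exchange factor of HSP70, had 59.2, 39.7 and 31.0 CPM in basal cells against 11.4, 14.3 and 15.3 in LP and 10.9, 7.51 and 15.5 in ML cells. Its groups did not overlap, and its log2 difference was 1.84 (SE 0.23, adjusted p = 5.53e-05). Dnaja1, an HSP40 that hands clients to HSP70, had 1567, 1183 and 742 CPM in basal cells, 775, 540.4 and 448 in LP and 470.5, 400.1 and 400.1 in ML cells, higher than both luminal lineages within each library, a difference of 1.18 (SE 0.12, adjusted p = 1.20e-05). Hspb1, a small heat shock protein that binds actin filaments, was higher by 1.02 (SE 0.17, adjusted p = 3.53e-04), Hsp90aa1, the inducible cytosolic HSP90, by 0.85 (SE 0.12, adjusted p = 1.06e-04), Dnajb1 by 0.63, Hspe1 by 0.56 and Hspa8, the constitutive HSP70, by 0.46. With Lum Int sums added to the scaling, basal Hspa8 was close to its LP level in estrus (4486 against 4451 CPM) and diestrus (2934 against 2905). The inducible HSP70 gene Hspa1a was not called at 0.05 (SE 0.22, adjusted p = 0.864), and neither were Hspa1b (-0.41), Hsp90ab1 (0.14) and Hspd1 (0.22).

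Cells differ in total counts between the lineages, with medians of 2540 to 3393 in basal, 3176 to 4052 in LP and 4151 to 4668 in ML cells. Among cells of 4000 to 10000 counts alone, an alternative added after seeing the data, 14 early genes were higher in luminal and 3 in basal cells, Fos was called luminal at -0.90, and 4 chaperones were higher in basal cells. Gadd45b (0.53, adjusted p = 0.127) and Hspb1 (0.63, adjusted p = 0.0366) were among those not called there. Without the library as a block, Jun, Jund, Atf3, Nfkbia, Cebpb, Hspb1 and Hspa8 were not called, with adjusted p-values from 0.0125 for Nfkbia to 0.28 for Cebpb. Without the diestrus library, 4 early genes were higher in basal cells, Cebpb no longer among them (0.55, adjusted p = 0.0365). Nr4a1 was not called without the estrus (0.81, adjusted p = 0.0248) or the diestrus library (0.77, adjusted p = 0.0276), and Hspa8 was not without the puberty (0.35, adjusted p = 0.0785) or the estrus library (0.42, adjusted p = 0.0238).

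Within the luminal cells, early genes leaned to the progenitors. Of 27, 14 were higher in LP than in ML cells and 3 were lower, against 15.4% and 12.9% of all genes, with a median log2 difference of 0.84 against 0.04 over all genes. Cebpb had 38.1, 57.3 and 259.6 CPM in LP cells and 4.70, 5.92 and 18.6 in ML cells, and the largest log2 difference at 3.39 (SE 0.21, adjusted p = 3.19e-07). Maff stood at 1044, 1036 and 428 CPM in LP and 168, 132 and 98.8 in ML cells, a difference of 2.57 (SE 0.16, adjusted p = 3.90e-07). Both genes were higher in LP than in ML cells of every library.

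The survival gene Mcl1, a BCL2 family member, was higher in LP cells by 2.32 (SE 0.14, adjusted p = 2.37e-07), Ier3, an early gene that modulates cell death, by 2.30 (SE 0.24, adjusted p = 2.44e-05), and Ier5, whose protein acts with heat shock factor 1, by 2.21 (SE 0.19, adjusted p = 4.29e-06). Nfkbiz and Nfkbia were higher by 2.11 and 1.93, and Dusp1 by 1.28. Egr1 was higher by 1.58 (SE 0.18, adjusted p = 4.98e-05), with 477, 1203 and 684 CPM in LP and 149, 364 and 274 in ML cells. Klf6, Gadd45b, Ier2, Btg2 and Junb were the others, at 0.70 to 1.67. The AP-1 pair Fos and Jun was not called, at 0.42 (SE 0.21, adjusted p = 0.138) and 0.01 (SE 0.16, adjusted p = 0.96), nor was Atf3 at 0.05. Without the library as a block, Cebpb, Egr1, Socs3, Gadd45a and Hspa8 were not called between LP and ML cells, with adjusted p-values from 0.0212 for Cebpb to 0.0552 for Egr1.

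The 3 early genes of mature luminal cells were Klf2, Socs3 and Gadd45a. Klf2 had 946, 2628 and 1639 CPM in ML cells and 301, 458 and 275 in LP cells, a log2 difference of -2.23 (SE 0.18, adjusted p = 2.57e-06). The difference of Socs3 was -1.71 (SE 0.19, adjusted p = 3.17e-05) and that of Gadd45a, a p53 target of growth arrest, -1.23 (SE 0.16, adjusted p = 1.26e-04). Of the 11 chaperones Hspa8 alone was called by edgeR, higher in LP cells by 0.83 (SE 0.14, adjusted p = 7.00e-04), with 4293, 4472 and 2918 CPM in LP and 2212, 2029 and 2163 in ML cells. Without the estrus library the adjusted p of Hspa8 was 0.0107. Hsp90aa1 and Hsp90ab1 stood at 0.28 and 0.12. Hspa1a had 193, 351 and 99.0 CPM in LP and 181, 776 and 340.3 in ML cells. After TMM it was higher in ML cells of the adult libraries only. On CPM of all counts, without TMM, it was higher in ML cells of puberty too (172 against 152 in LP cells). Its difference of -0.95 (SE 0.27, adjusted p = 0.0149) was not called. Without the puberty library it was -1.5 (adjusted p = 8.79e-05), and among cells of 4000 to 10000 counts -1.60 (adjusted p = 2.57e-04). Hspa1b, with 2 to 127 counts per lineage and library, was not called at -1.04. These 2 were the chaperones higher in ML cells at an unadjusted p under 0.05, and DESeq2 called 1 of 11 there, Hspa1a.

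**Figure D2:**
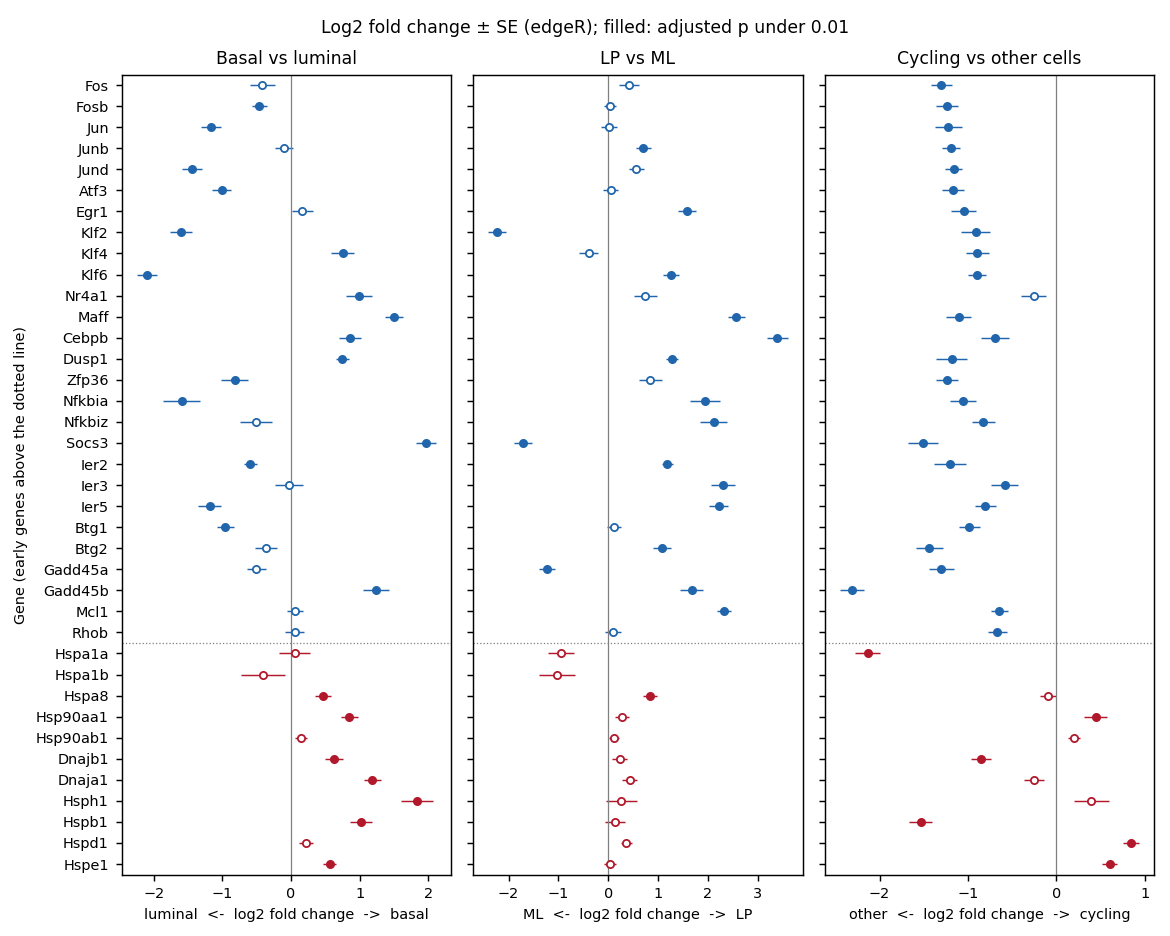
Log2 fold change with its SE for each of the 38 genes between basal and luminal cells (left), LP and ML cells (middle) and cycling and other cells (right), early genes in blue above the dotted line and chaperones in red below it. Filled points passed an adjusted p under 0.01; they include 14 early genes on the LP side, 7 chaperones on the basal side and 26 early genes on the side of cells that are not cycling.

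Cells between LP and ML had some early genes above both, and how many depended on the scaling. The Lum Int class held 229, 109 and 92 cells in puberty, estrus and diestrus. On the scale of CPM of all counts, without TMM, its level was above both LP and ML for 8, 12 and 14 of 27 early genes, against 11%, 12.9% and 14.5% of all genes of at least 50 CPM in LP or ML cells. Fos had 2929, 9869 and 6324 CPM in Lum Int cells, against 2676, 8459.8 and 5149 in LP and 2268, 6909.9 and 4681 in ML cells. Fosb had 498, 1427 and 808 in Lum Int cells, above 255, 1143 and 567 in LP and 287, 1099.7 and 718 in ML cells. The 5 AP-1 subunits and Zfp36 were the 6 genes above both in each of the 3 libraries. For chaperones the counts were 2, 2 and 3 of 11, and none was above both in all 3. Members were counted at any level, unlike the genes behind the shares. Hspa1b was among the chaperones of puberty and diestrus from 7 and 4 Lum Int counts (4.61 and 6.08 CPM). With TMM over basal, LP, ML and Lum Int sums, an alternative added after seeing the data, 4, 7 and 15 early genes were above both, against 9.4%, 11.4% and 20% of all genes. Fosb and Jund alone were then above both in all 3 libraries. Fos stood at 3261 CPM in Lum Int and 3388 in LP cells of puberty on that scale, and Jun and Junb also were not above LP cells there. The class also has high totals per cell, with medians of 6246, 6139 and 7084 counts in the 3 libraries, and the part of pairs of LP and ML cells caught under 1 barcode was not tested.

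Early genes took a smaller share of the transcripts of cycling cells. Cells with at least 3 of 10 cell-cycle genes detected were set against the other cells of the same lineage and library (18 sums, 9 pairs, blocked by pair, 8127 genes tested). The 3 lineages of a library share its mice, so the 9 pairs are not independent and these p-values may be too small. Of 27 early genes, 26 were lower in cycling cells and none was higher (0 also at an unadjusted p under 0.05 in edgeR, and 0 by DESeq2), against 18.6% and 13.5% of all genes, and the median log2 difference was -1.11 against -0.13 over all genes. CPM of Fos, without TMM here and in the medians of this comparison, ran from 899 to 4847 with a median of 2515 in cycling cells and from 1332 to 9032 with a median of 5294 in other cells. It was lower in cycling cells of 9 of 9 pairs, and its fitted log2 difference was -1.30 (SE 0.12, adjusted p = 1.02e-07). Jun and Egr1 had differences of -1.22 and -1.05, and Atf3 -1.17. With the lineages of a library summed, which leaves 3 pairs and was added after seeing the data, 22 early genes were lower in cycling cells and none was higher, and Fos differed by -1.27 (adjusted p = 1.82e-04).

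Of the early genes Gadd45b had the largest difference. Its CPM had a median of 30.4 in cycling and 127 in other cells, and it was lower in 9 of 9 pairs with a log2 difference of -2.31 (SE 0.14, adjusted p = 2.78e-10). Socs3 followed at -1.51, Btg2, an antiproliferative gene, at -1.44 (SE 0.15, adjusted p = 5.79e-07), and Gadd45a at -1.30. Nr4a1 was the early gene not called, at -0.26 (SE 0.14, adjusted p = 0.135).

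Chaperones split by kind. The mitochondrial chaperonin pair was higher in cycling cells: Hspd1, the folding chamber, had a median of 618 CPM in cycling and 258 in other cells, with no overlap between the states, and a log2 difference of 0.85 (SE 0.09, adjusted p = 1.01e-06), and its lid Hspe1 differed by 0.61 (SE 0.09, adjusted p = 1.61e-05). Hsp90aa1 was higher by 0.45 (SE 0.13, adjusted p = 0.00863), a call lost in 7 of the alternative settings, among them those without the estrus or the diestrus library. Hspe1 was not called without the block (adjusted p = 0.0728). The stress-inducible Hspa1a was lower in cycling cells, with a median of 56.1 CPM against 261, at a log2 difference of -2.13 (SE 0.14, adjusted p = 8.35e-10), as were Hspb1 (-1.53) and Dnajb1 (-0.85). Hspa8 (-0.09), Hsp90ab1 (0.20), Dnaja1 and Hsph1 were not called, and Hspa1b was too low to be tested.

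Cycling cells also had higher totals, with medians of 6614 to 10604 counts against 2480 to 4506 in other cells, so a smaller share is not a smaller number of transcripts per cell. Among cells of 4000 to 10000 counts, where medians still differed (6610 to 8932 against 5133 to 5962), 23 of 27 early genes were lower in cycling cells with log2 differences of -0.84 for Fos and -2.0 for Gadd45b, and the same number of chaperones was called in each direction, 3 and 3. The smallest group there was 7 cycling LP cells of estrus.

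For the stages, each adult library and puberty were compared within a lineage as log2 ratios of CPM with 1 added, among genes of at least 50 CPM in either library, and a ratio of at least 1 in size is counted. Each stage is 1 library, so a ratio holds the stage, the mice and the handling of that library, which cannot be told apart, and comparisons share libraries. The early genes of the set were lower in puberty than in estrus. In basal cells 17 of 26 passing early genes were at least 2-fold higher in estrus (4.97% of all genes), in LP cells 11 of 27 (2.07%) and in ML cells 9 of 23 (1.57%), and none was higher in puberty (8.24%, 7.13% and 8.22% of all genes). The median log2 ratios were -1.27, -0.87 and -0.95, against 0.12 to 0.13 for all genes.

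Fos, at 1255 CPM in basal cells of puberty and 7416 in estrus, had ratios of -2.56, -1.38 and -1.30 in basal, LP and ML cells. Egr1 had -2.27, -1.33 and -1.29, and Jun -1.49, -1.1 and -1.13. Fos, Fosb, Jun, Junb, Egr1 and Btg2 passed in all 3 lineages. Zfp36 (-2.26), Nfkbia (-2.0) and Junb (-1.93) differed most in basal cells after Fos and Egr1, Jund (-1.62) and Rhob (-1.42) in LP cells after Fosb (-1.88), and Fosb (-1.63) and Klf2 (-1.47) in ML cells, ahead of Fos and Egr1, with Socs3 (-1.23) after them. Atf3 was at -1.56, -1.21 and -0.73. Maff, Mcl1 and Gadd45a did not reach the size counted in any lineage, at -0.05 to 0.62.

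Between the adult libraries the early genes were higher in estrus in fewer cases. In basal cells 6 of 27 were higher in estrus and 1 in diestrus (4.23% and 7.87% of all genes), in LP cells 7 and 1 of 27 (5.32% and 7.76%) and in ML cells 1 and 0 of 24 (1.32% and 6.57%). The medians were -0.64, -0.81 and -0.34. Rhob, a small GTPase, was higher in estrus in each lineage, with ratios of -1.41, -1.39 and -1.34 for diestrus over estrus. Jund (-1.52), Gadd45b (-1.44), Maff (-1.27), Btg2 (-1.17), Fosb (-1.08) and Atf3 (-1.01) passed in LP cells, and Gadd45a (-1.38) and Junb (-1.08) in basal cells, where Gadd45b (-1.35), Maff (-1.27) and Jund (-1.21) passed too. Fos had -0.81, -0.79 and -0.35, Jun -0.40, -0.93 and -0.20, and Egr1 -0.79, -0.81 and -0.41, all short of the size counted.

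Cebpb went against the rest. It had 19.1, 28.7 and 167 CPM in basal cells of puberty, estrus and diestrus, and 38.1, 57.3 and 259.6 CPM in LP cells. Diestrus was highest in both lineages, with log2 ratios over estrus of 2.50 and 2.16, and puberty over diestrus of -3.06 and -2.74. In ML cells it stayed under 50 CPM, with 51, 26 and 65 counts. Between puberty and diestrus, 7 of 26 early genes were higher in diestrus in basal cells and 2 in puberty (2.12% and 4.0% of all genes), 1 and 2 of 27 in LP cells (2.04% and 6.95%), and 2 and 1 of 24 in ML cells (2.06% and 4.41%). Basal Fos (-1.75), Nfkbia (-1.56), Egr1 (-1.48) and Zfp36 (-1.47) were lower in puberty, as were Fosb (-1.22) and Socs3 (-1.07) in ML cells, and Gadd45a was higher in puberty in each lineage (1.41, 1.1 and 1.01), with Maff in basal and LP cells (1.22 and 1.29).

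For diestrus against estrus, 9 chaperones passed the level in each lineage. In basal, LP and ML cells 1, 1 and 1 were higher in diestrus (7.87%, 7.76% and 6.57% of all genes). In estrus 2, 1 and 1 were higher (4.23%, 5.32% and 1.32%). Of 10, 9 and 9 passing, 1, 1 and 1 were higher in puberty than estrus (8.24%, 7.13% and 8.22%). Higher in estrus than puberty were 1, 0 and 1 (4.97%, 2.07% and 1.57%). For puberty against diestrus 1, 1 and 0 were higher in puberty (4.0%, 6.95% and 4.41%) and none in diestrus. The inducible HSP70 gene Hspa1a had 219, 602 and 167 CPM in basal cells, 193, 351 and 99.0 in LP and 181, 776 and 340.3 in ML cells of puberty, estrus and diestrus. Estrus was highest in each lineage, with diestrus over estrus ratios of -1.84, -1.82 and -1.19 and puberty over estrus ratios of -1.46, -0.86 and -2.09. Its neighbour Hspa1b was low, with 7, 86 and 6 counts in basal cells of puberty, estrus and diestrus, 18, 21 and 2 in LP and 39, 127 and 15 in ML cells, and it did not pass the level. Hspe1 ran the other way. It had 641, 282 and 639 CPM in basal cells, 385, 175 and 548 in LP and 393, 190.3 and 466 in ML cells. Estrus was lowest in each lineage, with ratios over estrus of 1.18, 1.64 and 1.29 for diestrus and 1.18, 1.13 and 1.04 for puberty. Its partner Hspd1 had ratios of 0.61, 0.57 and 0.72 for diestrus over estrus and did not reach the size counted. Basal Hspb1 was higher in estrus than diestrus (-1.16), and Hspb1 in LP cells (1.44) and Dnaja1 in basal cells (1.08) were higher in puberty than diestrus. Hsp90aa1, Hsp90ab1 and Hspa8 stayed between -0.62 and 0.67 in every lineage and comparison.

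**Figure D3:**
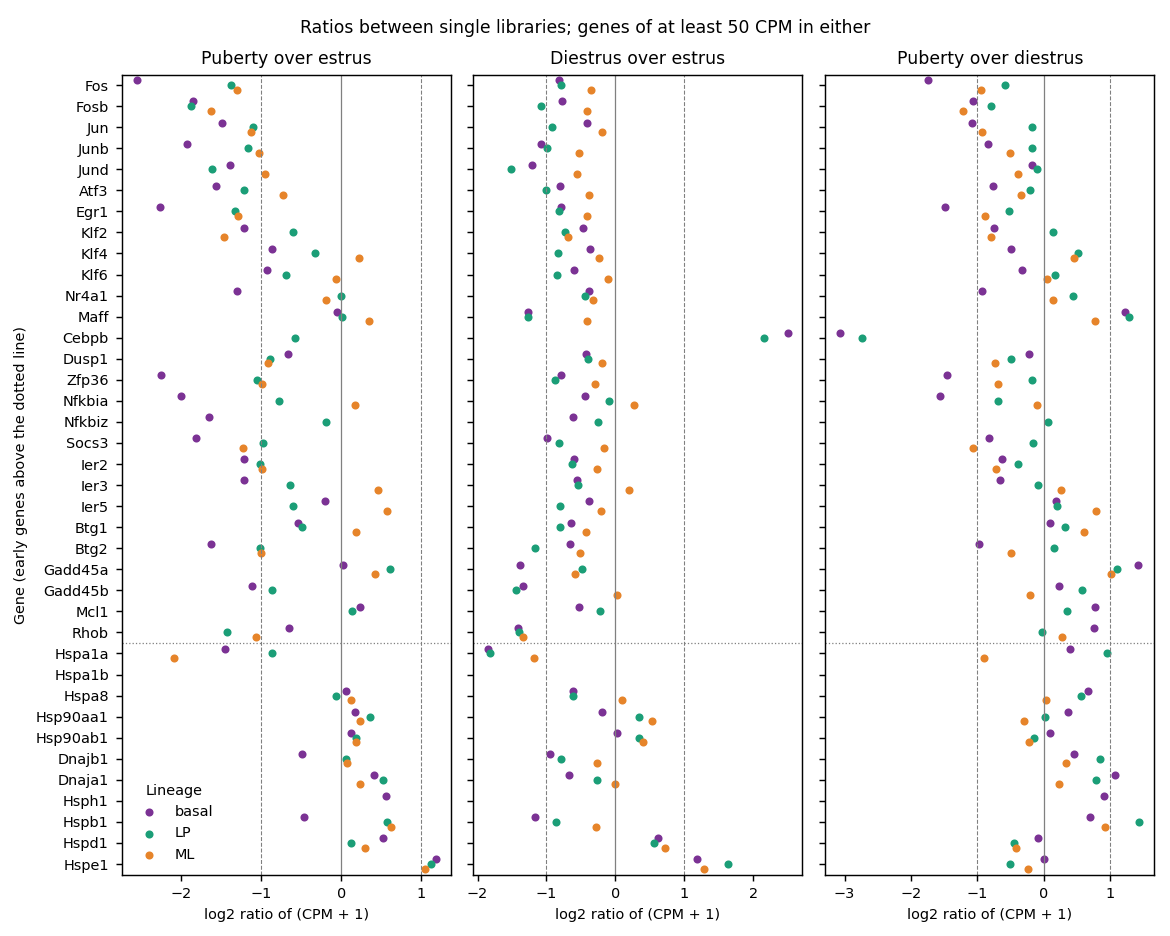
Log2 ratios of CPM with 1 added between single libraries, for puberty over estrus (left), diestrus over estrus (middle) and puberty over diestrus (right), in basal (purple), LP (green) and ML (orange) cells, for genes of at least 50 CPM in either library, with early genes above the dotted line and dashed lines at -1 and 1. Early genes lie mostly left of 0 in the left panel, down to -2.56 for basal Fos, while Hspe1 lies right of 1 in the left and middle panels.

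The choice of scaling moves these ratios. With library totals in place of TMM, an alternative added after seeing the data, the median ratio of all genes moved by -0.35 to 0.07, and Hspe1 no longer passed for puberty over estrus in LP and ML cells. Among cells of 4000 to 10000 counts the early genes higher in estrus than puberty were 18, 15 and 13.

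Single cells of 1 lineage and library varied far more in early genes than in chaperones. Each cell was thinned to 1500 counts, leaving out 9 to 64 shallower cells per group. The median cell then had 15, 59 and 28 early counts in basal cells of puberty, estrus and diestrus, 22, 70 and 40 in LP cells and 16, 50 and 27 in ML cells. The variance over the mean was 16.8 to 39.8 for the early sum and 1.90 to 3.99 for the chaperone sum over the 9 groups, which did not overlap. In basal cells of puberty the sums had similar means, 19.6 early and 18.8 chaperone counts per cell, with variance over mean of 27.1 and 3.99. The 10% of cells with the most early counts held 20% to 36.5% of them. In puberty the spread was a long upper tail: LP cells had a median of 22 and a 90th percentile of 79.8 counts, against 70 and 143 in estrus.

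**Figure D4:**
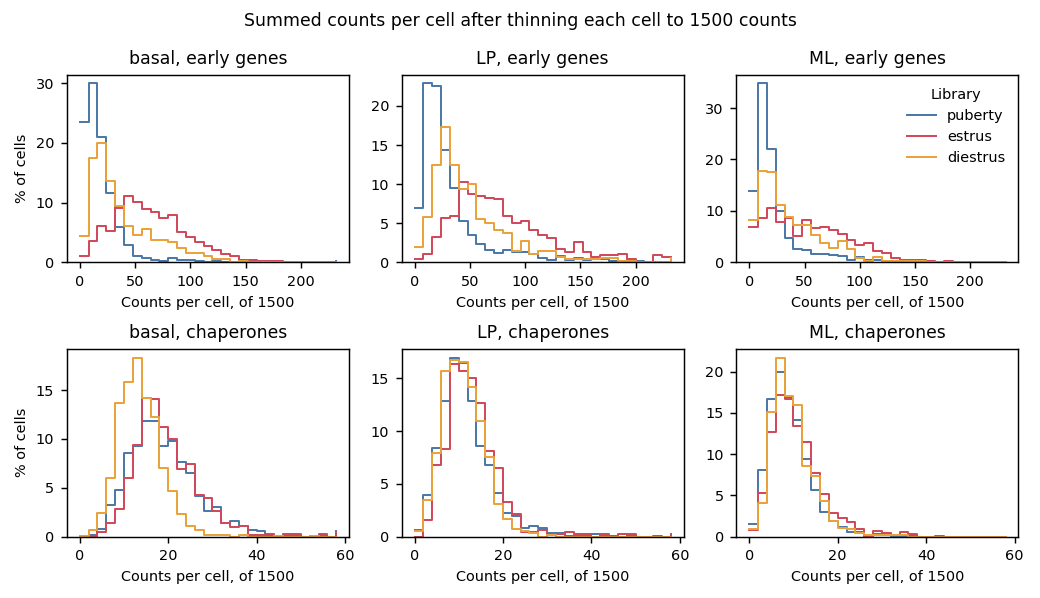
Percentage of cells by the summed counts of early genes (top) and chaperones (bottom) in each cell after thinning to 1500 counts, in bins of 8 and 2 counts with the last bin open, for basal, LP and ML cells of the puberty, estrus and diestrus libraries. Early counts of puberty pile up at the low end with medians of 15 to 22, and those of estrus are spread around medians of 50 to 70. Chaperone curves of the 3 libraries largely overlap in LP and ML cells. In basal cells the diestrus curve lies lower, with a median of 13 against 17 in puberty and 18 in estrus.

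Early genes rose and fell together between cells of 1 group. Over pairs of 21 early genes detected widely enough, the median Pearson correlation was 0.13 to 0.19 in the 9 groups, against 0.03 to 0.06 for pairs of 9 chaperones, -0.02 to 0.05 between an early gene and a chaperone, and about 0 over pairs of all 1028 genes (-0.00014 to 0.0067). The summed early and summed chaperone counts had correlations of 0.10 to 0.40 in 8 of the 9 groups and -0.12 in LP cells of diestrus. Fos and Jun, whose proteins pair, had 0.47 to 0.68. Cells here share a library, and the early sum fell with a cell's total counts before thinning (r with the log total -0.47 to -0.06), so cells of low totals carried larger early shares, and r with the mitochondrial percentage was -0.22 to 0.08. Among 998 other genes, those among the most like the early sum by their median r over the 9 groups were Pnrc1 (0.34), the nuclear RNA Malat1 (0.31), Ppp1r15a (0.30), which restarts translation after stress, Cyr61 (0.29), H3f3b (0.28), Tob1 (0.23), Krt18 (0.21), Ubb (0.20) and Zfp36l1 (0.20). Cyr61 is itself known as an early gene.

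Genes of the same pathways outside the set were counted from lists, to be read against the shares of all genes called, which were 21.8% higher in basal and 18.5% in luminal cells, 15.4% in LP and 12.9% in ML cells, and 13.5% higher and 18.6% lower in cycling cells. Of 29 other early genes tested, 22 were higher in LP than ML cells and 3 lower, led by Nr4a2 (5.49), Dusp5 (4.09) and Ctgf (3.92) on the log2 scale, and by Dusp2 (-3.27) and Nfil3 (-2.34) toward ML cells. Between basal and luminal cells, 15 were higher in basal cells and 2 in luminal cells, with Ctgf (5.91), Nr4a2 (3.80) and Nr4a3 (3.37) first. In cycling cells 18 of 27 were lower and none higher. Between libraries these other early genes did not all go as the set did. For puberty against estrus, 1 of 20 passing genes was at least 2-fold higher in puberty and 8 in estrus in basal cells (median log2 ratio -0.62), 1 and 2 of 20 in LP cells (-0.05), and 2 and 0 of 12 in ML cells (0.29). For diestrus against estrus none was higher in diestrus, and 3 of 20, 7 of 20 and 0 of 11 were higher in estrus in basal, LP and ML cells. Of 15 kinases and transcription factors that drive early genes, 4 were higher in basal and 1 in luminal cells, with Elk3 (2.39) and Srf (1.08) among them, 2 were higher in LP cells, both of them NF-κB subunits (Nfkb1 at 1.22 and Rela at 1.07), and 2 in ML cells, counts near the shares of all genes or under them. Of 19 other cytosolic chaperones and heat shock factors, 6 were higher in basal and 2 in luminal cells, led by Hspb8 (4.97), Cryab (2.55) and Bag3 (2.05), and 3 were higher in each of LP and ML cells. In cycling cells 6 were higher, with Stip1 (0.66) and Tcp1 (0.56) first, and 3 were lower, Bag3 (-0.87), Dnajb4 (-0.83) and Cryab (-0.55). Of 14 chaperones of the endoplasmic reticulum and mitochondrion, 4 were higher in basal cells and 1 in luminal cells, 3 were higher in LP and 1 in ML cells, and of 13 tested in cycling cells 2 were lower, Dnajb9 (-1.23) and Hspa5 (-0.42), again near the shares of all genes or under them.

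Some chaperone counts are uncertain because processed pseudogenes share their 3′ ends. Of the 50-base stretches in the last 500 bases of their transcripts, 68.6% for Hspa8, 53.2% for Hspe1, 39.2% for Hspb1, 39.1% for Dnaja1, 29.8% for Hspd1 and 24.7% for Hsp90aa1 also occur in a transcript of another gene, whereas Hspa1a and Hspa1b shared none, so reads could tell those neighbours apart. Among early genes, only Btg1 (14.4%) shared any.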

How the data were processed

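The values are UMI counts per gene and cell in tables deposited by the authors, who used Cell Ranger 2.0 with the mm10 genome per the submitters' processing notes. Cells were assigned to lineages from seed cells, set by known markers, and signatures of up to 100 genes built from them. Borders were at 33.3% and 66.7% between signature scores. The signatures left out the members and the other lists of early genes, their regulators and chaperones. They kept seed markers such as Krt14, and genes on no list, among them Cxcl1, Cxcl2 and Tnf for LP and Arc for basal cells. The part of such genes in the lineage differences was not tested. No doublet caller was run. Counts were summed per lineage and library and tested with edgeR 4.0.16 (quasi-likelihood F test, TMM scaling, default filter on low counts, library as block, Benjamini-Hochberg adjusted p under 0.01) in R 4.3.3, with DESeq2 1.42.0 as an alternative. Blocks are libraries, since lineages of 1 library come from the same mice, except that cycling and other cells were blocked by lineage and library together. Stages were compared as log2 ratios of CPM with a pseudocount of 1. For spread, cells were thinned to 1500 counts. The test was checked on simulated data. Named in each comparison were the 5 early genes and 3 chaperones with the largest called difference in each direction, always Fos, Jun, Egr1, Atf3, Hspa1a, Hspa1b, Hsp90aa1, Hsp90ab1 and Hspa8, at most 3 genes a direction of each other list and the 10 genes most like the early sum, of which 1 is not reported here; other members were named beside these after their values were seen. The members and lists were chosen with earlier results of these data known. The second puberty table, the same library counted again, was used as an alternative only. No RefSeq promoter was matched for Egr1, Hsp90aa1, Hsp90ab1, Hspa8, Ier2 and Nfkbiz.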

Additional observations from a re-analysis of the deposited data

How the results depend on the processing

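Over all alternatives, 496 of 596 recomputed values of 60 summaries were within 1.5 times the count or 1 SD of the value given, and 933 of 1027 recomputed values of 73 single-gene differences and median ratios kept direction and side of the threshold or moved by less than the spread. No call reversed sign. Calls made in every setting were 8 of 17 between basal and luminal cells, 5 of 10 between LP and ML cells and 12 of 14 in cycling cells, among the genes followed singly. Those lost in at least 1 setting were Atf3, Cebpb, Gadd45b, Hspa8, Hspb1, Jun, Jund, Nfkbia and Nr4a1 between basal and luminal cells, Cebpb, Egr1, Gadd45a, Hspa8 and Socs3 between LP and ML cells, and Hsp90aa1 and Hspe1 in cycling cells. The cause of each change was not tested.

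Leaving out 1 library at a time gave 4 to 7 early genes higher in basal cells (4 without diestrus), 9 to 11 higher in luminal cells, 5 to 7 chaperones higher in basal cells, 12 to 15 early genes higher in LP and 3 in ML cells, 0 to 1 chaperones higher in LP (0 without estrus) and 0 to 1 in ML cells (1 without puberty), 24 to 26 early genes lower in cycling cells and 2 to 3 chaperones higher there. Without the replicate block of libraries, early genes higher in basal cells were 4, in luminal cells 4, in LP 8 and in ML cells 1, and chaperones higher in basal cells were 3, in LP 0 and in cycling cells 1. Chaperones higher in ML cells were 1 with DESeq2, with no filter, without cycling cells and in cells of 4000 to 10000 counts, and 2 in cells of 1000 genes and at an adjusted p under 0.05, where 3 were higher in LP. With no filter 5 chaperones were lower in cycling cells. In cells of 4000 to 10000 counts 3 early genes and 4 chaperones were higher in basal cells. With TMM over 4 classes, added after seeing the data, early genes above both LP and ML in Lum Int cells were 4 in puberty, 7 in estrus and 2 in all 3 libraries, and chaperones 1 in puberty and 1 in estrus. The chaperone of puberty was Hspa1b, at 5.14 CPM in Lum Int cells.

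Shares of all genes called are not given for the alternatives, here or above, except for TMM over 4 classes. Counts under the others show only how far a setting moved a count, not whether it exceeds the share of all genes. For the stages, a log2 ratio of 0.5 gave, for diestrus against estrus in basal, LP and ML cells, 19, 20 and 6 early genes higher in estrus, chaperones 5 and 4 higher in estrus in basal and LP cells, and 2, 2 and 3 higher in diestrus. For puberty against estrus it gave 20 and 14 early genes higher in estrus in LP and ML cells, 1 and 1 higher in puberty there, chaperones 3, 3 and 2 higher in puberty and 1 higher in estrus in LP cells. For puberty against diestrus it gave 4, 4 and 4 early genes higher in puberty and 15, 5 and 10 in diestrus, with chaperones 4, 5 and 1 in puberty and 1 each in diestrus in LP and ML cells. At 10 CPM, chaperones higher in estrus than diestrus were 2 in LP and 2 in ML cells, those higher in estrus than puberty 2, 1 and 2, and 1 early gene was higher in diestrus than estrus in ML cells. With library totals, an alternative added after seeing the data, 14 early genes were higher in estrus than puberty in ML cells, chaperones higher in puberty were 0 in LP and ML cells and 1 was higher in estrus in LP cells. Against diestrus, library totals gave 0 early genes higher in puberty in LP and ML cells, 3 and 4 higher in diestrus, 0 chaperones higher in puberty in basal cells and 1 higher in diestrus in ML cells.

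In cells of 4000 to 10000 counts, also added after seeing the data, 10 early genes were higher in estrus than diestrus in basal cells, and chaperones higher in estrus than puberty were 3 in basal and 1 in LP cells. Puberty against diestrus there gave 1 early gene higher in puberty in basal and 0 in ML cells, 2 and 4 higher in diestrus in LP and ML cells, and chaperones higher in puberty 0 in basal and 1 in ML cells. In cells of 1000 genes, 1 early gene was higher in puberty and 11 in diestrus in basal cells, 2 in diestrus in LP cells, 0 chaperones in puberty in basal cells, and 1 chaperone in estrus over puberty in LP cells. Seed cells alone gave 1 early gene higher in puberty than diestrus in LP cells, 5 higher in diestrus in ML cells, chaperones 2 higher in puberty in basal and 1 in diestrus in ML cells, and 1 in estrus over puberty in LP cells. Without cycling cells, early genes higher in puberty than diestrus were 1 in LP and 0 in ML cells, chaperones 2 in basal cells, and 1 chaperone was higher in estrus than diestrus in basal cells. The second puberty table, the summed puberty tables and a pseudocount of 5 each gave 0 early genes higher in puberty than diestrus in ML cells.

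Mean variance over mean of early counts was 15, 22.9 and 16.1 in basal, LP and ML cells thinned to 1000 counts, with 2.16 for chaperones in ML cells, and 16.2 and 20.5 in basal and LP cells of 1000 genes.

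Differences near 0 that changed sign in some settings, none of them called as reported, were those of Jun between LP and ML cells (0.01 as reported, -0.025 with median-of-ratios factors, -0.033 without members in the scaling, -0.025 with no filter, -0.025 by DESeq2, from -0.16 to 0.19 with 1 library left out, -0.0018 in seed cells, -0.26 in cells of 1000 genes and -0.33 in cells of 4000 to 10000 counts), Atf3 between LP and ML cells (0.05 as reported, from -0.16 to 0.11 with 1 library left out, -0.0077 in seed cells, -0.17 in cells of 1000 genes and -0.27 in cells of 4000 to 10000 counts), Egr1 between basal and luminal cells (0.17 as reported, from -0.014 to 0.39 with 1 library left out and -0.18 in cells of 4000 to 10000 counts) Hspa1a between them (0.05 as reported, from -0.010 to 0.16 with 1 library left out and -0.17 in cells of 4000 to 10000 counts) and Hspa8 in cycling cells (-0.09 as reported and 0.012 with lineages summed per library).

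Each stage is 1 library, so depth cannot settle stage differences, and counts of Hspa1b were too few to rank its levels.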
